A study of Mus musculus with 24 samples.

Results

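The clustered protocadherins were followed in 4 lines of mouse embryonic fibroblasts (MEFs), with and without IL-1β, to describe which of their isoforms each line transcribed. Members were the protein-coding genes with the symbols Pcdha, Pcdhac, Pcdhb, Pcdhga, Pcdhgb or Pcdhgc followed by a number, which gave 57 of the 55471 genes counted. They comprise 14 α genes, 22 β genes and 21 γ genes, and they lie side by side on chromosome 18 of GRCm38 between positions 36930184 and 37841873. The α cluster spans 36930184 to 37187661, the β cluster 37264938 to 37524479 and the γ cluster 37661793 to 37841873. The 57 identifiers carry 56 different symbols, because Pcdha11 names both ENSMUSG00000007440.10 and ENSMUSG00000102206.5.

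Clustered protocadherins are adhesion proteins of the cadherin family that bind the same isoforms on a neighbouring cell. Each α and γ gene has a variable exon with its own promoter, which is spliced to constant exons shared by the whole cluster, whereas β genes lie within an exon of their own and have no shared constant region. Neurons are known to transcribe a small and varying selection of the α, β, γA and γB genes, through a choice of promoters that depends on DNA methylation, CTCF and cohesin, while the C-type genes (Pcdhac1, Pcdhac2, Pcdhgc3, Pcdhgc4 and Pcdhgc5) stand apart from this choice.

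RNA-seq of 3T3 MEFs, which are immortalized fibroblasts, comprised 24 libraries in 8 groups of 3. The lines were MEFs of the wild type, Lkb1-/- MEFs, which lack the kinase LKB1 encoded by Stk11, and the Lkb1-/-/Crtc2-/- clones A1 and A2, which also lack the CREB coactivator CRTC2. Each was left untreated or stimulated with the cytokine IL-1β for 6 hours. The clones were grown from single cells after CRISPR-Cas9 editing of Lkb1-/- MEFs, so the loss of LKB1 is shared by all of them. Wild-type and Lkb1-/- MEFs are 1 line each, so that genotype and line cannot be told apart. The double knockout is 2 clones, and no clone of Lkb1-/- MEFs without the Crtc2 edit is among the libraries. Loss of CRTC2 and growth from a single cell therefore cannot be told apart either. The labels do not say that the 3 replicates came from separate cultures, and p-values therefore measure only the spread between these libraries. RNA came from whole cultures, where fewer cells that transcribe a gene and less RNA per cell cannot be told apart.

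Between 38842901 and 48594394 read pairs per library were counted on genes. Levels are given as CPM after TMM scaling, that is as counts divided by the scaled library total. Stk11 was at 85.99 CPM in untreated wild-type MEFs, at 17.3 in Lkb1-/- MEFs, at 21.4 in A1 and at 18.1 in A2. Crtc2 was at 58.4, 81.1, 42.9 and 49.8 CPM in the same order, and since the edit lies in the first exon its RNA does not directly test the knockout. Summed fibroblast markers lay between 5717 and 9936 CPM in all libraries, although of the defining markers Thy1 had at most 3 counts and Lum at most 10 in any library. Of 9 tested fibroblast markers, 4 were higher and 4 lower in untreated Lkb1-/- than in wild-type MEFs, and 3 higher and 4 lower after IL-1β. These are 88.9% and 77.8% of the tested markers, against 55.9% and 57.4% of all genes tested. Col1a1, Col1a2, S100a4 and Vim were the lower ones in untreated cells, and Fn1, Pdgfrb, Pdgfra and Dcn the higher ones. Pdgfra (CPM 4.58) and Dcn (CPM 0.411) were low in the wild type and high in Lkb1-/- MEFs (342 and 218). Summed endothelial markers lay at 0.370 to 0.678 CPM in the wild-type libraries and at 2.06 to 3.85 CPM in the others, leukocyte markers at 2.44 to 5.13 and 4.32 to 8.96 CPM, and epithelial markers at 0.117 to 0.447 and 0.110 to 0.424 CPM. The 1 tested endothelial marker (Kdr), the 1 tested epithelial marker (Epcam) and 1 of 2 tested leukocyte markers (Csf1r) were higher in untreated Lkb1-/- MEFs. Their log2 fold changes were 2.73, 2.77 and 5.07, and 30.1% of all genes tested were higher. The part of these markers in the members' results was not tested.

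Pairs that fall on the constant exons belong to every α or every γ gene at once and were not counted, so the counts of an α or γ gene come from sequence that only it holds, mainly its variable exon. For comparisons between genes, CPM was divided by the kilobases of exon that no other gene of the same strand covers, which is called the level per length below. After the filter on low counts 33 members could be tested, namely 12 β and 21 γ genes and 0 α genes. At 3 counts per library, taken as the detection limit, the floor lay between 0.0604 and 0.0782 CPM, a limit that covers counting error only. Stretches of 50 bases also found in a transcript of another gene made up at most 12.0% of the unambiguous exons of a β gene. For a γ gene they made up at most 16.8% (Pcdhgb1, with Pcdhgb2 at 16.4% and Pcdhgb6 at 11.9%). Counts of such genes are uncertain, to an extent that was not tested.

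**Figure D1:**
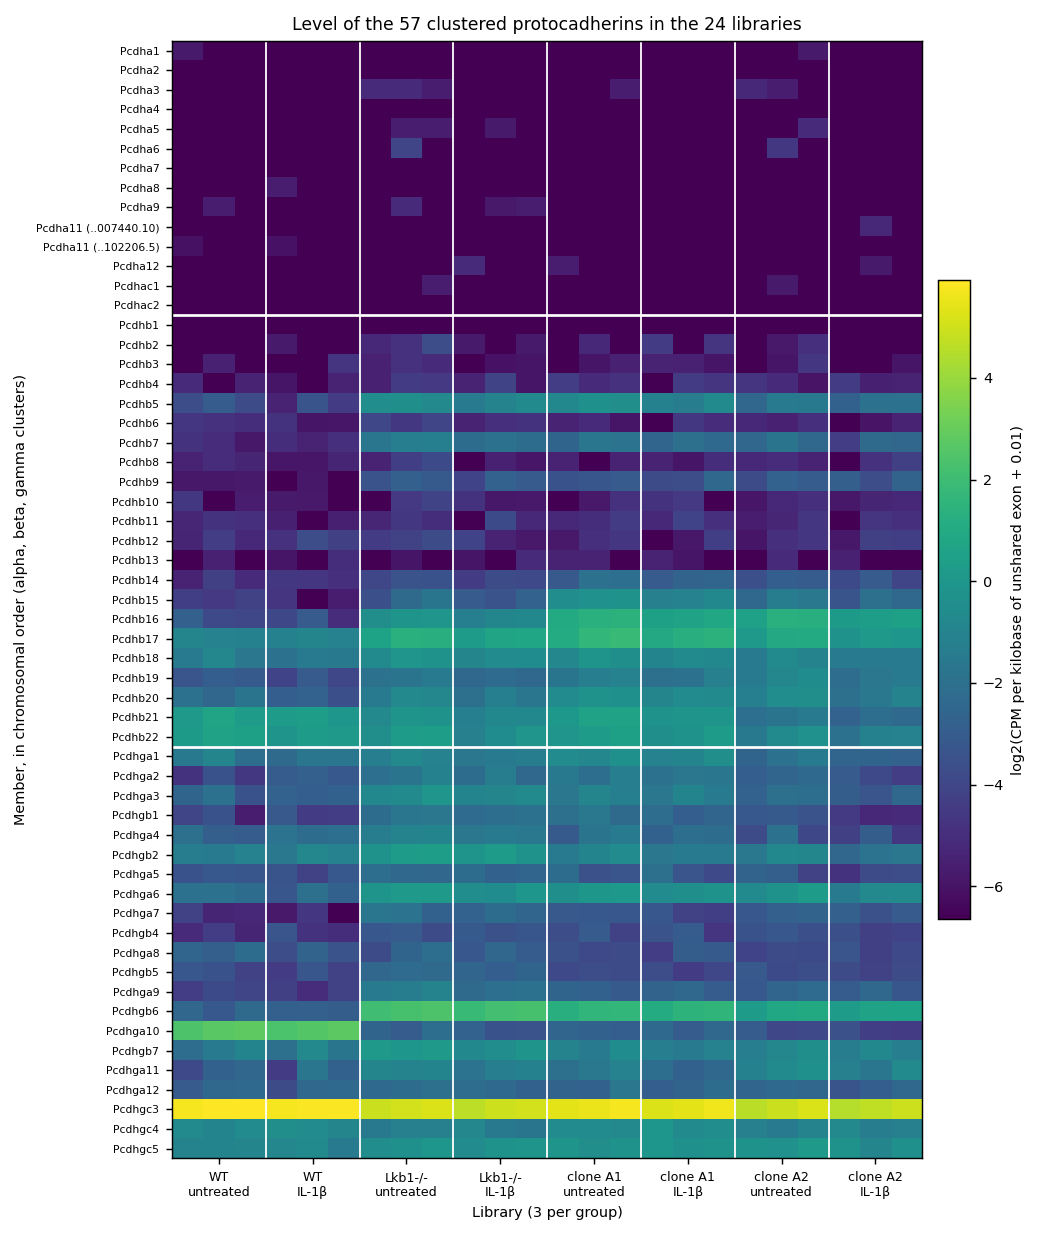
Level per length of each of the 57 members (rows, in chromosomal order) in each of the 24 libraries (columns, by line and treatment), as colour on a log2 scale of CPM per kilobase with 0.01 added. The α rows are nearly empty, Pcdhgc3 is the brightest row in all libraries, and Pcdhga10 and Pcdhgb6 exchange places between the wild-type libraries and the others.

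The α cluster was close to silent. Over 14 genes and 24 libraries, 40 read pairs were counted in all, 309 of the 336 values were 0, and 1 value exceeded 3 counts. The α genes with the highest level per length were Pcdha3, Pcdha6 and Pcdha5. Pcdha3 had 2, 2 and 1 counts in the untreated Lkb1-/- libraries, 0, 0 and 1 in A1, 2, 1 and 0 in A2 and 0 in all others. Pcdha6 had 5 counts in Lkb1-/- replicate 2 and 3 in A2 replicate 2, both untreated, and Pcdha5 had 5 counts spread over 4 libraries. None of them had a count in a wild-type library. Of the α C-types Pcdhac1 had 1 count each in an untreated Lkb1-/- and an untreated A2 library, and Pcdhac2 was at 0 in each of the 24, which allows up to 3 counts per library. Apart from Pcdha6 in 1 library, transcripts of the α genes were thus at or below this limit of detection. Stretches of 50 bases also found in a transcript of another gene made up to 28.6% of the unambiguous exons of an α gene.

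The γ cluster carried most of the protocadherin reads, and Pcdhgc3, a C-type gene, carried most of the γ reads. Summed γ levels in untreated cells were 223 ± 16.1 CPM (SD, n = 3) in wild-type, 152 ± 18.3 in Lkb1-/-, 189 ± 20.2 in A1 and 126 ± 24.6 in A2. The summed β levels were 21.2 ± 2.84, 38.3 ± 7.93, 56.2 ± 11.0 and 36.2 ± 10.5 CPM. The β genes thus held 8.70% of the members' counts in untreated wild-type MEFs and 19.9%, 22.8% and 22.1% in the other lines. Per length Pcdhgc3 made up 85.2% of the γ cluster in wild-type, 71.3% in Lkb1-/-, 83.5% in A1 and 81.0% in A2.

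Pcdhgc3 (ENSMUSG00000102918.1), which starts at position 37806364 at the 3' side of the γ cluster, stood at 179, 199.7 and 205 CPM in the untreated wild-type libraries, whereas the Lkb1-/- libraries held 101, 112 and 129 CPM, and the groups did not overlap. It was at 144, 160.4 and 179 CPM in A1 and 84.4, 103 and 126 CPM in A2. The A1 libraries lay above those of Lkb1-/- MEFs and at or below the lowest wild-type library, and the A2 libraries overlapped with those of Lkb1-/- MEFs. The opposite strand, where BC037039 lies, held 0.890% of the reads of Pcdhgc3. The other γ C-types were far lower and did not move together. Pcdhgc4 was at 2.19, 1.73 and 2.27 CPM in wild-type, 1.15, 1.53 and 1.52 in Lkb1-/-, 2.29, 2.28 and 2.09 in A1 and 1.51, 1.20 and 1.70 in A2, untreated. Pcdhgc5 was at 2.23, 2.28 and 2.40, 3.26, 3.62 and 4.43, 4.12, 3.41 and 3.81 and 3.99, 3.68 and 4.98 CPM in the same order, lowest in the wild-type libraries.

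Among the γA and γB genes the wild-type line had 1 leading isoform and the other lines had another. Of the γA and γB level per length, Pcdhga10 held 70.4% in untreated wild-type MEFs. Pcdhgb6 held 38.9%, 36.1% and 27.8% in untreated Lkb1-/-, A1 and A2 MEFs. After Pcdhgc3, Pcdhga10 was second in wild-type MEFs with 9.28% of the γ level per length, and Pcdhgb6 was second in Lkb1-/- MEFs (10.2%), A1 (5.01%) and A2 (4.30%). With C-types set aside, γB genes made up 11.8% of the γA and γB level in untreated wild-type MEFs, 60.8% in Lkb1-/- MEFs, 53.6% in A1 and 50.1% in A2. The spread of reads over isoforms was summarised as the effective number, the exponential of the Shannon entropy of the shares, which equals the number of genes when all are at the same level. For the γA and γB genes it was 3.88 ± 0.367 (SD, n = 3) in wild-type MEFs, 9.43 ± 0.110 in Lkb1-/-, 9.74 ± 0.479 in A1 and 10.8 ± 0.984 in A2. Over the β genes it was 6.39 ± 0.469, 9.99 ± 0.265, 9.05 ± 0.134 and 8.74 ± 0.0549. In both sets wild-type MEFs had the lowest value.

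The β genes that were read lay mainly at the 3' end of their cluster. Pcdhb14 to Pcdhb22 held 80.0% to 95.8% of the β level per length in each of the 24 libraries, and 9 of these 9 genes passed the filter on low counts. Of Pcdhb1 to Pcdhb13, 3 of 13 passed it (Pcdhb5, Pcdhb7 and Pcdhb9). The 10 untested β genes reached at most 13 counts in a library, and Pcdhb1 was at 0 throughout. The leading isoform differed between lines. In untreated wild-type MEFs Pcdhb22 (32.0%) and Pcdhb21 (30.1%) led, in Lkb1-/- MEFs Pcdhb17 (26.5%) and Pcdhb22 (12.9%), in A1 Pcdhb17 (24.3%) and Pcdhb16 (20.3%), and in A2 Pcdhb16 (28.6%) and Pcdhb17 (22.6%).

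**Figure D2:**
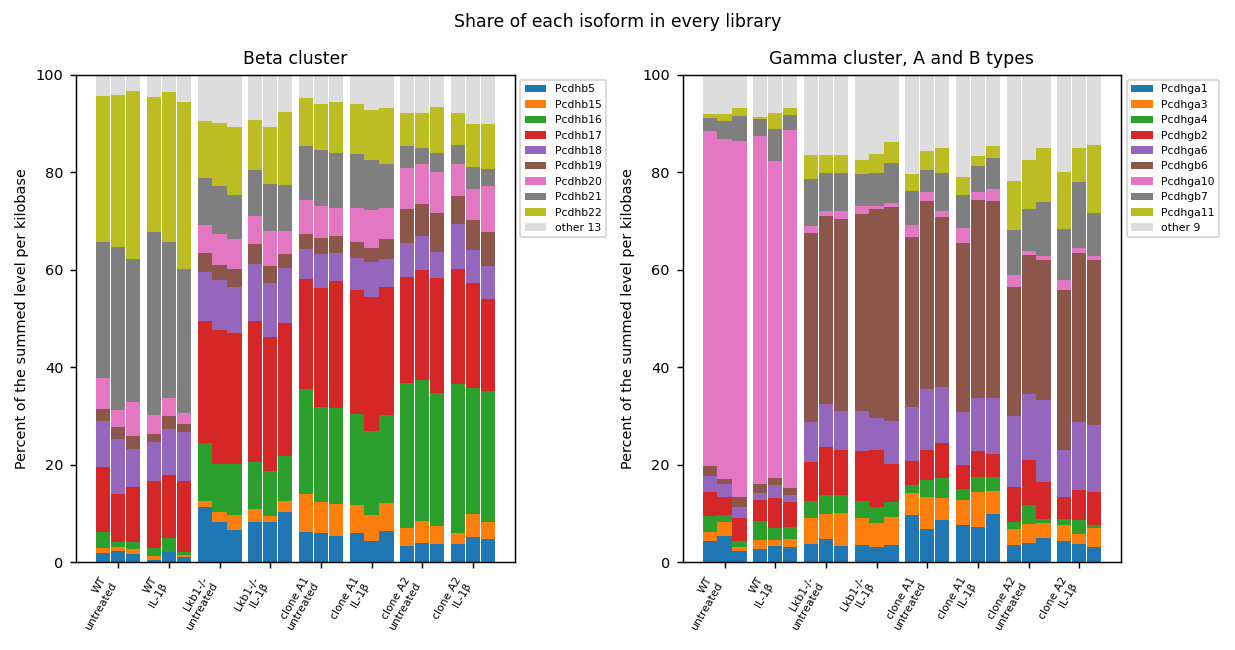
Percent of the summed level per length held by each isoform in each of the 24 libraries, for the β cluster and for the γA and γB genes, as stacked bars with the 9 leading isoforms in colour and the rest in light grey at the top. Pcdhb22 and Pcdhb21 fill most of the wild-type β bars and Pcdhga10 most of the wild-type γ bars, while Pcdhb17, Pcdhb16 and Pcdhgb6 are wider in the other 3 lines.

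Lkb1-/- MEFs were compared with wild-type MEFs at baseline and under IL-1β, where loss of LKB1 and line cannot be told apart. In untreated cells 24 of the 33 tested members were higher and 3 lower in Lkb1-/- MEFs (edgeR, FDR under 0.05), which is 81.8% of the members against 55.9% of all 17522 genes tested, 30.1% higher and 25.8% lower. After IL-1β 21 were higher and 4 lower, 75.8% against 57.4% of all genes, 30.2% higher and 27.1% lower. The same call was made under both treatments for 21 members that were higher and 3 that were lower, against 26.6% and 23.3% of all genes. The median log2 fold change of the members was 1.55 untreated and 1.15 after IL-1β, where the median over all genes was 0.04 and 0.03. In the β cluster 10 of 12 tested genes were higher and 1 lower in untreated cells, and in the γ cluster 14 of 21 were higher and 2 lower. Taking 6 libraries of each line, 19 members lay wholly above and 3 wholly below the wild type, against 25% and 22.9% of all genes.

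Pcdhgb6 and Pcdhga10, neighbours in the γ cluster, moved furthest and in opposite directions. Pcdhgb6 (ENSMUSG00000103088.1), which starts at position 37742094, was at 0.424, 0.253 and 0.496 CPM in the untreated wild-type libraries, whereas the Lkb1-/- libraries held 10.8, 12.3 and 13.8 CPM. After IL-1β it was at 0.346, 0.350 and 0.310 and 9.12, 11.7 and 12.1 CPM. All Lkb1-/- libraries were above all wild-type libraries, with a log2 fold change (± SE, FDR over all genes tested) of 4.98 ± 0.25 (FDR = 3.38e-13) untreated and 5.02 ± 0.25 (FDR = 4.33e-13) after IL-1β. Pcdhga10 (ENSMUSG00000102222.1), which starts at position 37746993, was at 13.9, 17.1 and 18.4 CPM in the untreated wild-type libraries, whereas the Lkb1-/- libraries held 0.407, 0.302 and 0.571 CPM. After IL-1β it was at 13.3, 15.3 and 17.6 and 0.384, 0.208 and 0.216 CPM. Here the wild-type libraries were the high ones, without overlap, and the log2 fold change was -5.26 ± 0.25 (FDR = 2.13e-13) untreated and -5.83 ± 0.27 (FDR = 9.8e-14) after IL-1β. The exons of Pcdhga10 overlap Gm26672 on the other strand. The counts used are strand-specific, and the opposite strand held 0.453% of the reads of Pcdhga10.

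Genes of the β cluster rose over a wide range of levels. Pcdhb7 had 4, 3 and 1 counts in the untreated wild-type libraries and 45, 61 and 62 in the Lkb1-/- libraries, and 3, 2 and 3 and 30, 43 and 30 after IL-1β. The wild-type libraries were at or near the detection limit and well below the others, with log2 fold changes of 4.31 ± 0.50 (FDR = 2.32e-07) and 3.51 ± 0.52 (FDR = 5.99e-06). Pcdhb9 was at the detection limit in wild-type MEFs, with 1, 1 and 1 counts untreated and 0, 1 and 0 after IL-1β, against 11, 18 and 14 and 6, 21 and 14 in Lkb1-/- MEFs. Its summed counts gave a ratio of 14.03 (95% exact interval 4.49 to 70.7, for counting error) untreated and 38.0 (6.46 to 1539) after IL-1β, and its FDR was 9.57e-05 and 3.4e-05. Pcdhb16 (ENSMUSG00000047910.6, 37477814 to 37483038) went from 0.692, 0.299 and 0.287 to 3.85, 4.64 and 4.90 CPM in untreated cells, with no overlap and a log2 fold change of 3.36 ± 0.34 (FDR = 2.26e-08). Pcdhb17 (ENSMUSG00000046387.5, 37484795 to 37489454) went from 2.37, 2.19 and 2.11 to 7.20, 11.6 and 11.4 CPM, and its log2 fold change was 2.18 ± 0.24 (FDR = 1.05e-07). Both were higher after IL-1β as well, by 2.97 ± 0.36 (FDR = 3.5e-07) and 1.66 ± 0.24 (FDR = 4.53e-06).

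The leading β isoforms of wild-type MEFs did not rise. Pcdhb21 was at 4.56, 6.88 and 4.98 CPM in the untreated wild-type libraries and 2.54, 3.78 and 3.50 CPM in the Lkb1-/- libraries, and it fell, with log2 fold changes of -0.74 ± 0.21 (FDR = 0.00406) untreated and -1.14 ± 0.21 (FDR = 8.88e-05) after IL-1β. Pcdhb22 was at 7.12, 9.37 and 8.53 and 4.44, 7.33 and 7.74 CPM with overlapping groups, and its log2 fold changes of -0.36 ± 0.30 (FDR = 0.33) and -0.67 ± 0.31 (FDR = 0.0708) missed the threshold, the second of which passed it in the fit with a replicate block (-0.71 ± 0.15, FDR = 0.000264). Pcdhb21 (ENSMUSG00000044022.5, 37513621 to 37518325) and Pcdhb22 (ENSMUSG00000073591.4, 37517871 to 37524479) are adjacent and overlap on 1 strand, and only pairs outside the overlap were counted.

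The 3 γ C-types differed in direction. Pcdhgc3 fell in Lkb1-/- MEFs, with log2 fold changes of -0.77 ± 0.14 (FDR = 7.42e-05) untreated and -0.90 ± 0.14 (FDR = 1.21e-05) after IL-1β. Pcdhgc4 had -0.55 ± 0.24 (FDR = 0.055) untreated, which missed the threshold, and -0.71 ± 0.24 (FDR = 0.0146) after IL-1β, a call that was lost without wild-type IL-1β replicate 1 (FDR = 0.0647) or Lkb1-/- IL-1β replicate 2 or 3 (0.0716 and 0.0814) or with upper-quartile scaling (0.0535). Pcdhgc5 rose, with 0.71 ± 0.21 (FDR = 0.00652) untreated and 0.63 ± 0.21 (FDR = 0.0136) after IL-1β, and these calls were lost without Lkb1-/- replicate 3 (FDR = 0.0573 and 0.0585), the second also without wild-type IL-1β replicate 3 (0.115). The other untreated calls in the γ cluster, beside those of Pcdhgb6 and Pcdhga10, were all higher in Lkb1-/- MEFs, from 1.31 for Pcdhgb5 to 3.17 for Pcdhga7. Pcdhga1, Pcdhga5, Pcdhga8 and Pcdhga12 were not called under either treatment. Of these Pcdhga5 was higher in every Lkb1-/- library than in any of the wild type, with log2 fold changes of 1.05 ± 0.50 (FDR = 0.078) untreated and 1.10 ± 0.51 (FDR = 0.0729) after IL-1β, and passed the threshold with the replicate block (1.04 ± 0.44, FDR = 0.0439 and 1.10 ± 0.46, FDR = 0.0404).

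**Figure D3:**
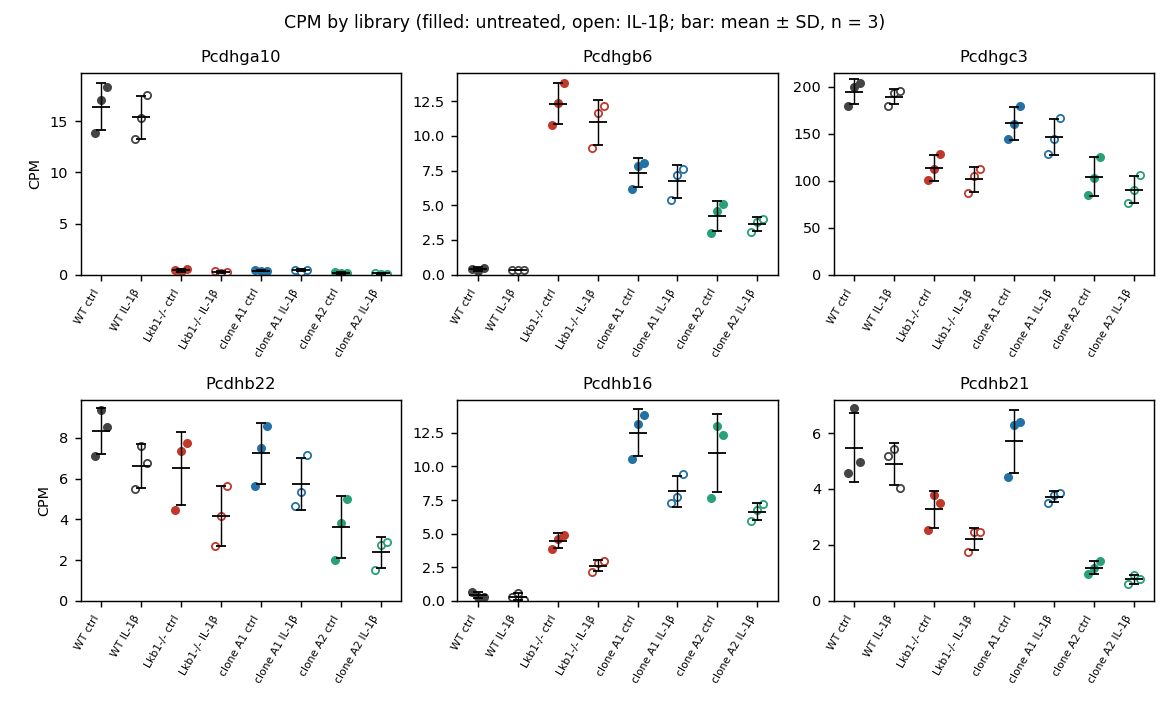
CPM of Pcdhga10, Pcdhgb6, Pcdhgc3, Pcdhb22, Pcdhb16 and Pcdhb21 in each of the 24 libraries, by line. Filled points are untreated and open points IL-1β libraries, with the mean and SD of 3 beside them. Pcdhga10 is high only in the wild-type libraries of these 4 lines, Pcdhgb6 falls from Lkb1-/- to A1 to A2, and Pcdhb16 is highest in the clones.

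The clones were compared with their parental Lkb1-/- MEFs, where loss of CRTC2 and growth from a single cell cannot be told apart. In A1, 6 of the 33 members were higher and 7 lower than in untreated Lkb1-/- MEFs, 39.4% against 35.3% of all genes, 18.9% higher and 16.4% lower. After IL-1β 8 were higher and 4 lower, 36.4% against 36.7% of all genes, 19.4% higher and 17.3% lower. In A2, 2 were higher and 16 lower in untreated cells, 54.5% against 32.3% of all genes (17.1% higher and 15.1% lower), and 1 higher and 14 lower after IL-1β, 45.5% against 32.8% (17.1% higher and 15.8% lower). Without Lkb1-/- replicate 2, 11 members were called in untreated A2, with no share over all genes to set beside it. The median log2 fold change of the members was -0.10 and -0.08 in A1, untreated and after IL-1β, and -0.84 and -0.74 in A2. With 6 libraries of each line, 5 members lay wholly above and 5 wholly below Lkb1-/- MEFs in A1 (15.6% and 12.9% of all genes), and 1 above and 8 below in A2 (11.5% and 10.4%). These comparisons share the Lkb1-/- libraries with each other and with the comparison to wild-type MEFs.

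Pcdhb16 rose in both clones. Pcdhb16 was at 10.5, 13.2 and 13.9 CPM in A1 and 7.64, 13.01 and 12.3 CPM in A2, untreated, and every library of both clones was above the untreated Lkb1-/- libraries. Its log2 fold change was 1.49 ± 0.26 (FDR = 0.000144) in A1 and 1.30 ± 0.26 (FDR = 0.000657) in A2, and 1.63 ± 0.27 (FDR = 7.37e-05) and 1.33 ± 0.27 (FDR = 0.000682) after IL-1β. Pcdhb15 had 9, 23 and 34 counts in Lkb1-/- MEFs, 82, 95 and 105 in A1 and 25, 47 and 40 in A2, untreated. It was far above in A1 and overlapped in A2, with log2 fold changes of 2.11 ± 0.40 (FDR = 0.000255) and 0.67 ± 0.41 (FDR = 0.23). After IL-1β it had 13, 11 and 17, 49, 57 and 65 and 11, 31 and 20 counts, again highest in A1 (2.12 ± 0.42, FDR = 0.000453). Pcdhb19 had 78, 85 and 101 counts in Lkb1-/-, 83, 119 and 145 in A1 and 122, 171 and 222 in A2, untreated. In A1 its log2 fold change was 0.42 ± 0.29 (FDR = 0.293), and A2 against A1 was not called (0.46 ± 0.29, FDR = 0.241). Its rise of 0.88 ± 0.29 (FDR = 0.024) in A2 was lost without Lkb1-/- replicate 1 or 2 (FDR = 0.0764 and 0.0736) or A2 replicate 2 or 3 (0.0534 and 0.112), and after IL-1β it was 0.65 ± 0.30 (FDR = 0.107), or 0.63 ± 0.21 (FDR = 0.0159) with the replicate block.

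Pcdhb21 moved in opposite directions in the clones. It stood at 4.41, 6.29 and 6.41 CPM in A1 and 0.967, 1.18 and 1.43 CPM in A2, untreated, and at 3.51, 3.80 and 3.87 and 0.618, 0.935 and 0.784 CPM after IL-1β. A1 was above Lkb1-/- MEFs (0.80 ± 0.21, FDR = 0.00409 untreated and 0.75 ± 0.21, FDR = 0.00837 after IL-1β, the latter 0.0505 in FDR without Lkb1-/- IL-1β replicate 1), and A2 was below (-1.46 ± 0.22, FDR = 3.67e-05 and -1.51 ± 0.23, FDR = 4.46e-05). Pcdhb17 was at 9.76, 14.6 and 16.3 CPM in A1 and 5.02, 9.03 and 9.47 CPM in A2, and its untreated log2 fold changes of 0.43 ± 0.22 (FDR = 0.141) and -0.36 ± 0.22 (FDR = 0.228) missed the threshold. With the replicate block the fall in A2 was called (-0.37 ± 0.13, FDR = 0.023). After IL-1β Pcdhb17 was called, higher in A1 (0.60 ± 0.22, FDR = 0.0385) and lower in A2 (-0.64 ± 0.23, FDR = 0.0354), and leaving out 1 library at a time ended each of these calls in 4 of 6 cases, as did scaling on chromosome 18 (FDR = 0.125 and 0.0885), for example without Lkb1-/- IL-1β replicate 2 (FDR = 0.062 and 0.101). Pcdhb22 was at 5.63, 7.51 and 8.59 CPM in A1 and 2.01, 3.84 and 5.02 CPM in A2, untreated, where the values in A2 were the lower ones. Its log2 fold change was 0.16 ± 0.30 (FDR = 0.735) in A1 and -0.84 ± 0.31 (FDR = 0.0413) in A2, and leaving out 1 library ended the latter call in 4 of 6 cases, for example without Lkb1-/- replicate 2 (FDR = 0.126). By cluster, 4 of 12 tested β genes were higher and 0 lower in untreated A1, 33.3% against 35.3% of all genes, and 2 were higher and 4 lower in untreated A2, 50% against 32.3%.

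In the γ cluster Pcdhgb6 and several γA and γB genes fell in both clones. Pcdhgb6 was at 6.15, 7.85 and 8.07 CPM in A1 and 3.002, 4.61 and 5.11 CPM in A2, untreated, below all untreated Lkb1-/- libraries and above all wild-type libraries. The log2 fold changes against Lkb1-/- MEFs were -0.75 ± 0.19 (FDR = 0.00348) and -1.54 ± 0.19 (FDR = 3.39e-06), and -0.71 ± 0.19 (FDR = 0.00516) and -1.60 ± 0.19 (FDR = 2.35e-06) after IL-1β. Pcdhga10, which was low in Lkb1-/- MEFs, was low in both clones, at 0.415, 0.360 and 0.322 CPM in A1 and 0.302, 0.139 and 0.154 CPM in A2. In A1 its difference from Lkb1-/- MEFs was not called (-0.22 ± 0.31, FDR = 0.631 untreated). In untreated A2 it was lower still (-1.07 ± 0.34, FDR = 0.0182), a call that was lost without Lkb1-/- replicate 3 (FDR = 0.128) or A2 replicate 2 or 3 (0.0986 and 0.0933). After IL-1β Pcdhga10 was not called in A2 against Lkb1-/- MEFs in the fit without a replicate block. Untreated, 2 of 21 tested γ genes were higher and 7 lower in A1, where 18.9% and 16.4% of all genes were, and 0 were higher and 12 lower in A2, where 17.1% and 15.1% were.

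Other γ genes were low in 1 or both clones. Pcdhgb5 had 34, 40 and 37 counts in Lkb1-/- MEFs, 11, 13 and 13 in A1 and 24, 12 and 15 in A2, untreated, without overlap, with -1.54 ± 0.32 (FDR = 0.000709) and -1.22 ± 0.31 (FDR = 0.00416). Pcdhga9 had 52, 56 and 69, 22, 20 and 16 and 17, 24 and 32 counts, with -1.57 ± 0.29 (FDR = 0.000192) and -1.36 ± 0.28 (FDR = 0.000755). After IL-1β Pcdhga9 was no longer called in A1 (-0.61 ± 0.29, FDR = 0.108), where it had 21, 26 and 16 counts against 28, 38 and 36. Pcdhgb2 after IL-1β had 104, 165 and 96 counts in Lkb1-/-, 34, 44 and 38 in A1 and 21, 35 and 35 in A2, low in both clones (-1.56 ± 0.28, FDR = 0.000174 and -1.996 ± 0.29, FDR = 1.92e-05). Pcdhga7 had 19, 31 and 21 counts in Lkb1-/- and 12, 6 and 5 in A1 after IL-1β (-1.52 ± 0.44, FDR = 0.0102), a call lost without A1 IL-1β replicate 2 or 3 (FDR = 0.0537 and 0.0562).

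In A2 the largest falls were those of Pcdhga4 and Pcdhga3 in untreated cells and of Pcdhgb1 and Pcdhga4 after IL-1β, all genes at the 5' side of the γ cluster. Pcdhga3 had 66, 72 and 100 counts in Lkb1-/- MEFs and 19, 27 and 26 in A2, untreated, with a log2 fold change of -1.81 ± 0.32 (FDR = 0.000165). Pcdhga4 had 26, 33 and 33 and 5, 17 and 4 counts, with -1.89 ± 0.48 (FDR = 0.00417). Pcdhgb1 had 24, 33 and 34 and 13, 12 and 10 counts untreated and 22, 28 and 27 and 4, 2 and 2 after IL-1β. The Pcdhgb1 groups were apart under both treatments, with -1.47 ± 0.38 (FDR = 0.00539) and -3.23 ± 0.49 (FDR = 2.99e-05), and 4, 2 and 2 counts lie near the detection limit. After IL-1β the falls of Pcdhga3 and Pcdhga4 were -2.08 ± 0.34 (FDR = 7.08e-05) and -2.27 ± 0.53 (FDR = 0.00231).

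The C-type Pcdhgc3 rose in A1, with 0.50 ± 0.14 (FDR = 0.00763) untreated and 0.53 ± 0.14 (FDR = 0.00502) after IL-1β, and was not called in A2 (-0.13 ± 0.14, FDR = 0.541 and -0.17 ± 0.14, FDR = 0.407), where the replicate block gave -0.17 ± 0.06 (FDR = 0.0238) after IL-1β. Pcdhgc4 rose in A1 after IL-1β (0.98 ± 0.24, FDR = 0.00259). Its untreated call in A1 (0.66 ± 0.24, FDR = 0.0353) was lost whichever of the 6 libraries was left out, with an FDR between 0.0535 and 0.134. Pcdhgc5 was not called in either clone.

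The clones were compared with each other because they have the same genotype. This comparison shares its libraries with those above. In untreated cells 0 of 33 members were higher and 12 lower in A2 than in A1, 36.4% against 32.5% of all genes (15.8% higher and 16.7% lower), and after IL-1β 1 was higher and 15 lower, 48.5% against 30.7% (15.1% higher and 15.6% lower). The 12 lower in untreated cells were lower after IL-1β too, as were 12.9% of all genes, while 12% were higher in both. Pcdhb21 differed most in untreated cells, at the levels given above, with -2.26 ± 0.22 (FDR = 1.51e-07) and -2.25 ± 0.23 (FDR = 3.03e-07) after IL-1β, and Pcdhb15 was next (-1.44 ± 0.38, FDR = 0.00534). Pcdhgb1 was lower in A2 after IL-1β, at 4, 2 and 2 against 23, 14 and 17 counts (-2.80 ± 0.50, FDR = 0.000196). Pcdhgc3 and Pcdhgb6 were also lower in A2, with log2 fold changes of -0.63 ± 0.14 (FDR = 0.00151) and -0.80 ± 0.19 (FDR = 0.00285) untreated. Pcdhga11 was the member that was higher in A2, after IL-1β, at 51, 37 and 69 against 24, 16 and 19 counts (1.32 ± 0.45, FDR = 0.0295), a call that was lost without A1 IL-1β replicate 2 or 3 (FDR = 0.114 and 0.069) or A2 IL-1β replicate 3 (0.143), and with unstranded counts (0.231). Taking 6 libraries of each clone, 0 members lay wholly above and 10 wholly below in A2, against 10.2% and 11.6% of all genes.

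**Figure D4:**
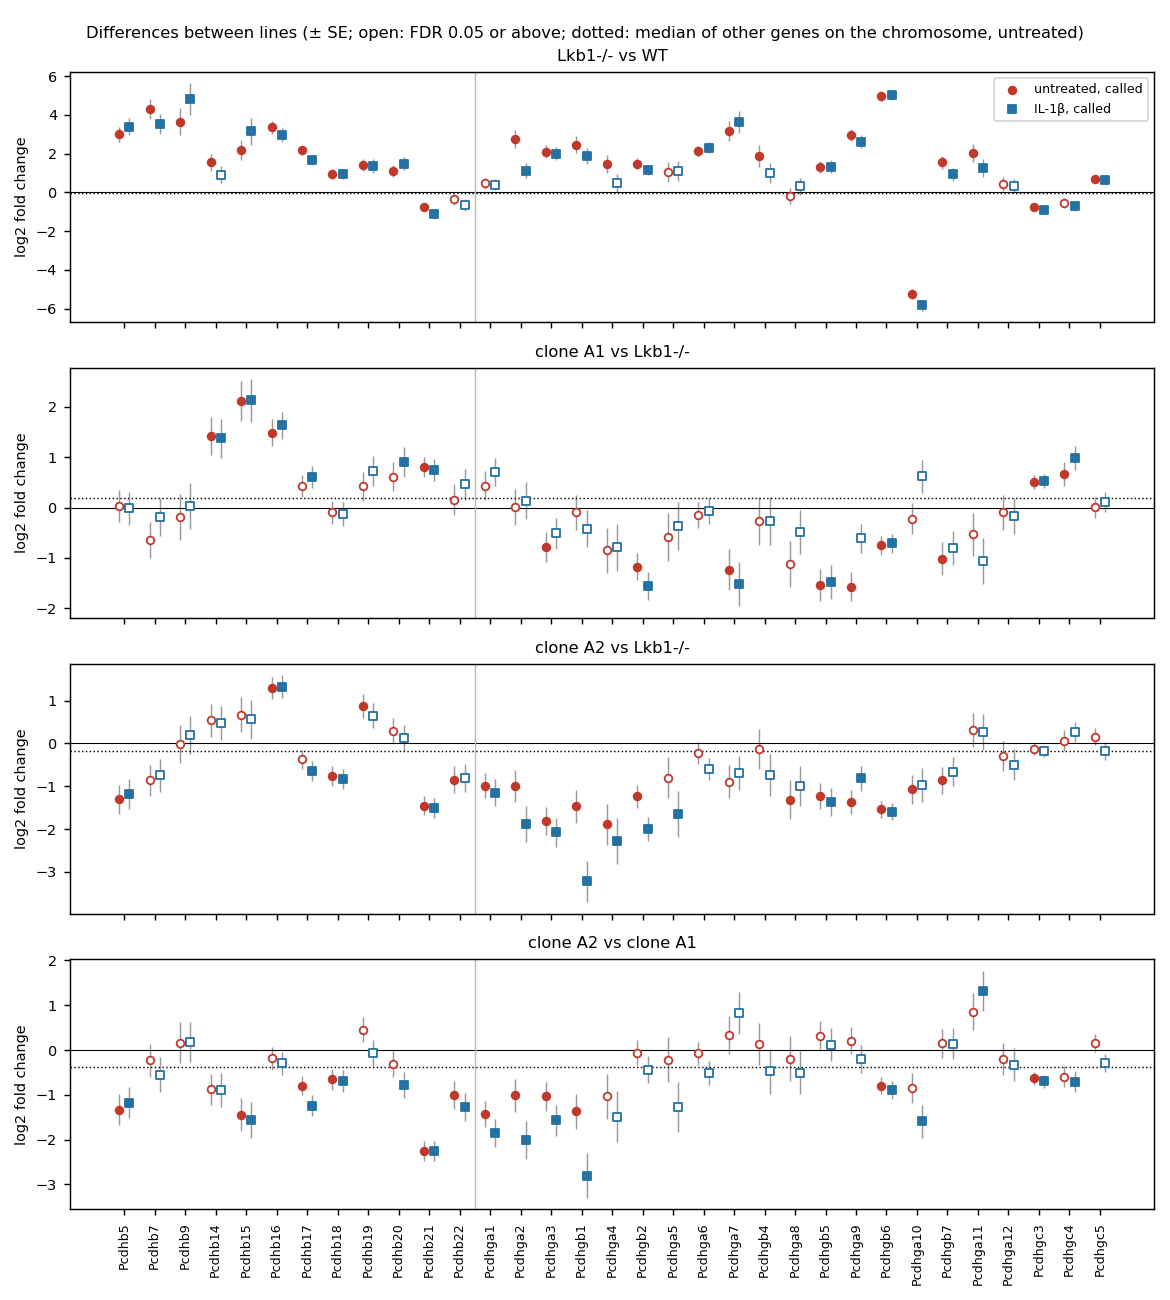
Log2 fold change with its SE of the 33 tested members, in chromosomal order, in 4 comparisons of lines, red for untreated and blue for IL-1β libraries, with open points where the FDR was 0.05 or more. The dotted line is the median of the other genes of chromosome 18 in untreated cells. Most points lie above 0 in Lkb1-/- against wild-type MEFs, where Pcdhga10, Pcdhgc3 and Pcdhb21 are called below 0 in both treatments, and most lie below 0 in A2 against Lkb1-/- MEFs.

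Other genes of chromosome 18 moved in the same direction between the clones. The median log2 fold change of 452 other tested genes of chromosome 18 was -0.05 in untreated Lkb1-/- against wild-type MEFs, 0.19 in A1 and -0.17 in A2 against Lkb1-/- MEFs, and -0.37 in A2 against A1, where the medians of the other 19 chromosomes ran from -0.31 to 0.46. Of 35 tested protein-coding neighbours within 1 Mb of the members, 6 were higher and 9 lower in untreated Lkb1-/- against wild-type MEFs (30.1% and 25.8% of all genes). Against Lkb1-/- MEFs, 11 were higher and 1 lower in untreated A1 (18.9% and 16.4%) and 0 higher and 10 lower in untreated A2 (17.1% and 15.1%). In untreated A2 against A1, 0 were higher and 19 lower (15.8% and 16.7%). When counts were scaled on these 452 genes, an alternative chosen after seeing the data, Lkb1-/- against wild-type MEFs had 24 higher and 3 lower in untreated cells, and 34.2% and 22.6% of all genes were. A2 against A1 then had 3 higher and 6 lower untreated, where 48.4% and 5.27% of all genes were, with a median over members of 0.04 in place of -0.31 and over all genes of 0.37 in place of 0.02, and the fall of Pcdhgc3 was no longer called (FDR = 0.0613). A1 against Lkb1-/- MEFs after IL-1β had 7 higher and 7 lower in place of 8 and 4, where 10% and 32.3% of all genes were. A2 against Lkb1-/- MEFs had 2 higher and 11 lower untreated, where 31.5% and 8.41% of all genes were, and 2 higher and 12 lower after IL-1β, where 31.6% and 8.77% were. The untreated calls of Pcdhb22, Pcdhga2, Pcdhga8, Pcdhga10 and Pcdhgb7 in A2 were lost (FDR = 0.0696, 0.0866, 0.051, 0.0503 and 0.0842), as were those of Pcdhb17 and Pcdhga9 after IL-1β (0.0885 and 0.0876). Of other calls given here with values, that of Pcdhgc4 in Lkb1-/- against wild-type MEFs after IL-1β was lost (0.054), and that in untreated A1 (0.14). The part of this chromosome-wide difference in the members' values was not otherwise tested.

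Most members had lower values after IL-1β, and how many were called depended on whether the replicate number entered the fit. The summed β level was 17.5 ± 2.31 CPM (SD, n = 3) in wild-type, 25.7 ± 4.85 in Lkb1-/-, 41.3 ± 6.49 in A1 and 22.5 ± 3.62 in A2 after IL-1β, below the untreated means given above. Without the replicate number, in wild-type, Lkb1-/- and A1 MEFs 0 of 33 members were called by edgeR, where 2.26%, 4.74% and 1.99% of all genes were. Of all genes 1.53%, 2.65% and 1.2% rose and 0.731%, 2.09% and 0.788% fell. An unadjusted p under 0.05 was found for 2, 7 and 2 members, against 11.4%, 14.7% and 10.7% of all genes, and DESeq2 called 0, 1 and 0 members, against 3.56%, 6.31% and 3.78% of all genes. In A2, 2 members fell and 0 rose, 6.06% against 5.68% of all genes, of which 2.81% rose and 2.86% fell. There 10 members had an unadjusted p under 0.05, against 17.6% of all genes, and DESeq2 called 6, against 8.3%. Fold changes were below 0 for 21, 32, 25 and 30 of the 33 members in wild-type, Lkb1-/-, A1 and A2 MEFs, against 47.6%, 52.2%, 53.2% and 53.7% of all genes. The medians were -0.21, -0.40, -0.31 and -0.60.

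With the replicate number as a block, 1 member fell in wild-type MEFs, 6 in Lkb1-/- MEFs, 2 in A1 and 10 in A2, and 0 rose. In that fit 9.3%, 14.8%, 9.61% and 17.9% of all genes were called and 4.59%, 9.07%, 5.94% and 10.6% fell. Libraries of the same number went together in these 4 comparisons. Pcdhb16 was at 2.16, 2.78 and 2.95 CPM in Lkb1-/-, 7.26, 7.74 and 9.46 in A1 and 5.94, 6.73 and 7.22 in A2 after IL-1β, below every untreated library of the same line. Its blocked log2 fold change was -0.76 ± 0.21 (FDR = 0.0136) in Lkb1-/-, -0.62 ± 0.18 (FDR = 0.033) in A1 and -0.71 ± 0.18 (FDR = 0.00787) in A2. Pcdhb21 fell in the same 3 lines (-0.56 ± 0.16, FDR = 0.0164, -0.60 ± 0.15, FDR = 0.00891 and -0.62 ± 0.20, FDR = 0.0321). The other members called with the block were Pcdhb17, Pcdhb19, Pcdhb22 and Pcdhga9 in Lkb1-/- MEFs, Pcdhb20 in wild-type MEFs, and Pcdhb17, Pcdhb19, Pcdhb20, Pcdhb22, Pcdhgb1, Pcdhgb2, Pcdhga6 and Pcdhgc3 in A2. Pcdhgc3 had the smallest of these changes (-0.20 ± 0.06, FDR = 0.0217).

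The members called in A2 without the block were Pcdhb17 and Pcdhgb1. Pcdhb17 went from 5.02, 9.03 and 9.47 CPM to 4.10, 4.99 and 4.51 CPM with IL-1β, without overlap (-0.79 ± 0.23, FDR = 0.0443). Leaving out any of 5 libraries ended this call, with an FDR up to 0.195 without untreated replicate 3, and it held without untreated replicate 1. Pcdhgb1 went from 13, 12 and 10 counts to 4, 2 and 2 (-2.02 ± 0.53, FDR = 0.0239), a call lost without untreated replicate 2 (FDR = 0.0736) or IL-1β replicate 2 or 3 (0.103 and 0.085). With 1 library left out at a time, the count of members called in A2 ran from 0 to 7, with no share over all genes to set beside it. No difference in the response to IL-1β was called between Lkb1-/- and wild-type MEFs, A1 and Lkb1-/- MEFs or A2 and Lkb1-/- MEFs for any member by edgeR or DESeq2, and 1 member had an unadjusted p under 0.05 in each. Over all genes edgeR called 0.245% (0.137% higher and 0.108% lower), 0.0285% (0% and 0.0285%) and 0% of such differences, DESeq2 called 0.878%, 0.0871% and 0.0966%, and 5.62%, 2.47% and 2.21% had an unadjusted p under 0.05 by edgeR. The same isoform led each cluster before and after IL-1β, except that Pcdhb21 and Pcdhb22 changed places in wild-type MEFs. Pcdhga10 held 8.94% of the γ level in wild-type MEFs after IL-1β and Pcdhgb6 10.3% in Lkb1-/- MEFs, and γB genes made up 13.2%, 64.0%, 54.1% and 53.9% of the γA and γB level in wild-type, Lkb1-/-, A1 and A2 MEFs.

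**Figure D5:**
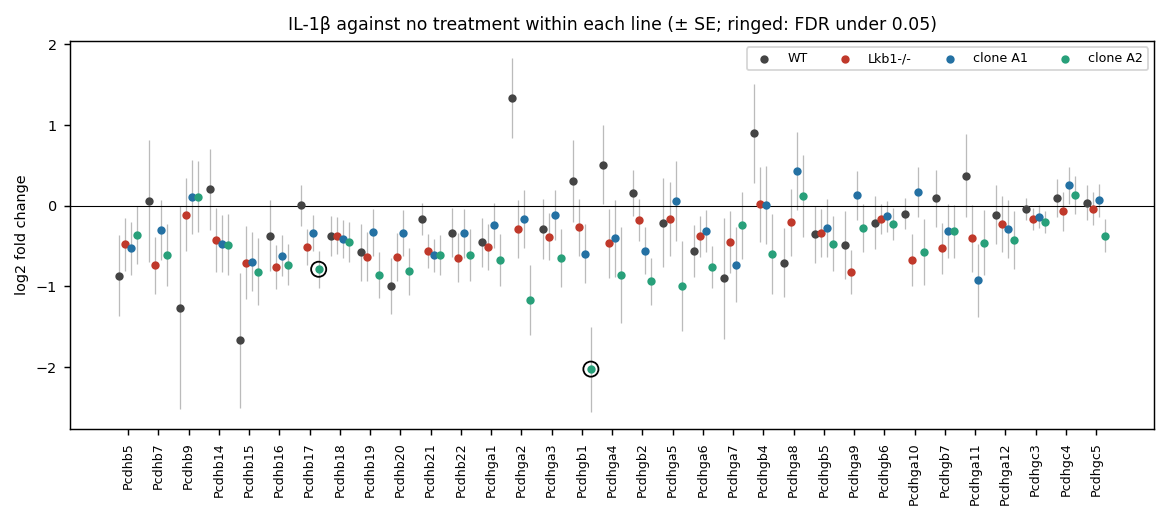
Log2 fold change of IL-1β against no treatment for the 33 tested members in the 4 lines, in chromosomal order, with rings around the calls at an FDR under 0.05 in the fit without a replicate block. Most points lie between 0 and -1, and the rings are on Pcdhb17 and Pcdhgb1 in A2.

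The proteins that set the choice of protocadherin promoters were followed as a list of 25 chromatin factors, all of which were tested. In untreated Lkb1-/- against wild-type MEFs 10 were higher and 4 lower, 56.0% against 55.9% of all genes, with a median log2 fold change of 0.11 against 0.04. Dnmt3a, a de novo DNA methyltransferase, fell from 83.1 ± 7.76 CPM (SD, n = 3) to 20.2 ± 2.42 CPM (-2.04 ± 0.17, FDR = 9.23e-10), and was at 25.5 CPM in A1 and 21.6 CPM in A2. Lrif1, a partner of SMCHD1, rose from 23.6 ± 1.26 to 36.7 ± 1.39 CPM (0.64 ± 0.06, FDR = 5.45e-09). Ctcf, the insulator protein that binds protocadherin promoters and enhancers, had 184 ± 3.87 and 192 ± 3.04 CPM (0.06 ± 0.06, FDR = 0.453) and was not called. The cohesin subunit Smc1a rose (0.57 ± 0.10, FDR = 4.99e-05). Smchd1, a repressor of clustered protocadherins, rose from 281 to 328 CPM (0.23 ± 0.09, FDR = 0.0474). The part of these changes in the members' levels was not tested.

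In the clones 4 of the 25 factors were higher and 10 lower in A1 than in Lkb1-/- MEFs, and 3 higher and 6 lower in A2, untreated, 56.0% and 36.0% against 35.3% and 32.3% of all genes, with medians of -0.13 and -0.02 against 0.02. Ctcf fell in both clones (-0.30 ± 0.06, FDR = 0.000792 in A1 and -0.21 ± 0.06, FDR = 0.0146 in A2), as did the cohesin subunits Smc3 (-0.44 ± 0.07, FDR = 7.04e-05 and -0.36 ± 0.07, FDR = 0.000746) and Smc1a (-0.30 ± 0.10, FDR = 0.0224 and -0.38 ± 0.10, FDR = 0.00603). Setdb1, a histone methyltransferase, had log2 fold changes of -0.40 ± 0.05 (FDR = 2.04e-06) and -0.30 ± 0.05 (FDR = 7.13e-05), and Lrif1 and Tet2 fell in both. Tet1, which oxidises methylated cytosine, rose from 1.83 ± 0.630 CPM to 3.65 ± 0.289 in A1 and 6.62 ± 0.849 in A2 (0.995 ± 0.18, FDR = 0.000222 and 1.85 ± 0.18, FDR = 1.76e-07), and Dnmt3b rose in both. Smchd1 fell in A1 (-0.56 ± 0.09, FDR = 8.55e-05) and was not called in A2 (-0.12 ± 0.09, FDR = 0.375), Uhrf1 and Mau2 fell in A1, Pds5a fell in A1, Atf7ip and Dnmt1 rose in A1, and Tet3 rose in A2.

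Partners of the cytoplasmic domains and proteases that cleave protocadherins formed a list of 19 genes, all tested, of which 5 were higher and 5 lower in Lkb1-/- MEFs, untreated, 52.6% against 55.9% of all genes. The median of their log2 fold changes was -0.09. The WAVE complex genes Wasf3 and Cyfip2 rose furthest. Wasf3 had at most 1 count in an untreated wild-type library and was at 13.4 ± 0.744 CPM in Lkb1-/- MEFs, 22.6 CPM in A1 and 5.63 CPM in A2. Cyfip2 went from 0.575 ± 0.0276 to 11.5 ± 2.39 CPM (4.31 ± 0.30, FDR = 1.01e-10), and Ncstn, a subunit of γ-secretase, fell from 129 ± 5.84 to 77.6 ± 3.04 CPM (-0.74 ± 0.08, FDR = 6.05e-08). In A1 4 of the list were higher and 3 lower and in A2 1 higher and 5 lower, untreated, 36.8% and 31.6% against 35.3% and 32.3% of all genes. Abi2 fell in both clones and Wasf1 rose in both, under both treatments. Axin1 and Cyfip1 fell and Fyn and Abi1 rose in A1, while Nckap1, Ptk2b and Abi1 fell in A2, and Wasf3 rose in A1 (0.75 ± 0.12, FDR = 3.81e-05) and fell in A2 (-1.25 ± 0.12, FDR = 1.49e-07).

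Of 12 nonclustered protocadherins, which have separate loci and genes of their own, 4 passed the filter, and in untreated Lkb1-/- MEFs 3 were higher and 1 lower than in the wild type, 4 of 4 against 55.9% of all genes. In A1 2 were higher and 1 lower than in Lkb1-/- MEFs, and in A2 2 higher and 1 lower, untreated, against 35.3% and 32.3% of all genes. Pcdh1, which lies within 1 Mb of the γ cluster, rose from 0.151 ± 0.0366 to 13.4 ± 1.70 CPM (6.45 ± 0.19, FDR = 5.62e-17), Pcdh7 from 100.2 to 207 CPM and Pcdh18 from 45.1 to 86.7 CPM. Pcdh19 fell from 65.05 to 39.5 CPM, was at 197 CPM in A1 (2.32 ± 0.17, FDR = 3.46e-09) and at 28.3 CPM in A2. Pcdh7 fell and Pcdh18 rose in A1 under both treatments, and Pcdh19 rose in A1 and fell in A2 under both.

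Some genes known from neurons were higher in Lkb1-/- than in wild-type MEFs. Summed over 8 neuronal markers, the level was 0.0921 to 0.750 CPM in wild-type libraries and 124 to 229 CPM in those of the other 3 lines, and 5 of 5 tested markers were higher in untreated Lkb1-/- MEFs, where 30.1% of all genes were. Untreated, 1 was higher and 2 lower in A1 and 1 higher and 3 lower in A2 than in Lkb1-/- MEFs. These are 60% and 80% of the tested markers, against 35.3% and 32.3% of all genes. Against A1, 3 were higher and 1 lower in untreated A2 (median log2 fold change 1.13), 80% against 32.5% of all genes. After IL-1β 2 were higher and 1 lower there (median 0.62), 60% against 30.7%. Most of the sum in those lines was Stmn2, a regulator of microtubules, which had at most 3 counts in any wild-type library and was at 148 ± 20.7 CPM in Lkb1-/- MEFs. Tubb3 reached 9.10 CPM, Syn1 8.07 CPM, Gap43 3.72 CPM and Syt1 0.925 CPM, whereas the defining neuronal markers Rbfox3, Snap25 and Elavl4 had at most 2 counts in any library. The part of these genes in the members' result was not tested.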

How the data were processed

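RNA was sequenced from 3T3 MEFs in 24 libraries, 3 in each of 8 groups. Per the labels and the study's methods, the authors trimmed reads with TrimGalore 0.6.0, and mapped them to GRCm38 by STAR 2.7.8a using a GENCODE annotation. The values they deposited are raw counts, the number of read pairs STAR assigned to each gene under 3 strand settings. The labels and the methods name different library kits, so the kit is not settled. The second strand setting held 95.5% to 96.0% of stranded counts and was used. Lines that name no gene held 26.7% to 34.4% of pairs and were left out. Library totals on genes were 38842901 to 48594394 (median 42431965), and at these totals 3 counts equal 0.0604 to 0.0782 CPM.

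Identifiers were given symbols from the reference annotation (55230 of 55471 matched). Low counts were removed by filterByExpr, given the groups (at least 10 counts, 15 in total), and the rest were scaled by TMM and fitted with edgeR 4.0.16 (R 4.3.3, limma 3.58.1) by quasi-likelihood with 1 term per group over all 24 libraries. The common biological coefficient of variation was 0.129. Benjamini-Hochberg adjustment ran over all 17522 genes tested, in each of 15 contrasts, and FDR is that adjusted p. Level per length used exons free of other genes on the same strand, and isoform shares and antisense shares were not tested. Alternatives were no low-count filter, size factors or the Wald test of DESeq2 1.42.0, upper-quartile scaling, unstranded counts, a replicate block, each library left out in turn and, added after seeing the data, scaling on chromosome 18.

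The members, gene lists and tests were chosen with earlier results of these data known. Library values are given for the 3 members with the highest level per length in each cluster, up to 2 called members with the largest change in each direction of each comparison of lines, members called for IL-1β, and the C-type members. Listed genes are named when among the 3 largest changes in untreated Lkb1-/- against wild-type MEFs or called in a clone under both treatments. Of the genes this rule names, 1 is not reported here. Other names were added after values were seen, among them Pcdhb22 and Pcdhb17 in the clones and the members called only with the replicate block. The labels give replicate numbers 1 to 3 in each group. Deviations from group means correlated at over 0.1 for all 3 same-numbered pairs in 9 of 12 comparisons, among them the 4 of IL-1β with no treatment (0.130 to 0.589), and there blocked values stand beside named results whose call they change. This pairing comes from the data, not from a stated batch.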

Additional observations from a re-analysis of the deposited data

How the results depend on the processing

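Of 140 calls of a member in a comparison, 96 held under every alternative, 41 were lost in at least 1, and 3 calls of Pcdhga10 held in all but unstranded counts, which gave no value for it. None changed direction. Counts of members called over both directions moved most for IL-1β. In A2 the count of 2 became 6 without the low-count filter, 1 with unstranded counts, 6 with DESeq2's Wald test, 10 with a replicate block, and 0 to 7 with 1 library left out. The count of 0 became 1 in wild-type MEFs with the block, 3 without the filter, 6 with the block and 1 with DESeq2 in Lkb1-/- MEFs, and 1 without the filter and 2 with the block in A1. Over all genes DESeq2 called 8.3% in A2 and 6.31% in Lkb1-/- MEFs. The block called 9.3%, 14.8%, 9.61% and 17.9% in wild-type, Lkb1-/-, A1 and A2 MEFs. Shares over all genes were not taken without the filter, with unstranded counts or with 1 library left out. Counts of members there cannot be set against them. With 1 library left out, the counts were 26 to 29 untreated and 21 to 25 after IL-1β in Lkb1-/- against wild-type MEFs, 10 to 12 and 9 to 13 in A1 against Lkb1-/-, 11 to 16 and 12 to 15 in A2 against Lkb1-/-, 8 to 13 and 13 to 15 in A2 against A1, and 0 for IL-1β in the other 3 lines and for all differences in response.

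Over all groups, correlations of deviations between same-numbered libraries ran from 0.0355 to 0.589 (69 of 84 over 0.1), and those between other libraries from -0.488 to 0.238 (8 of 168 over 0.1). Of 24 libraries, 23 correlated best with a library of their own number. In untreated Lkb1-/- against wild-type, A1 against Lkb1-/- and A2 against A1 not every same-numbered pair exceeded 0.1. With the block, which ended no call, the 8 comparisons of lines called 30, 28, 16, 17, 20, 20, 15 and 19 members, in the order of the report, while calls over all genes rose from 55.9%, 57.4%, 35.3%, 36.7%, 32.3%, 32.8%, 32.5% and 30.7% to 64.3%, 65.9%, 48.1%, 49.1%, 45.9%, 46.6%, 46.3% and 44.4%, and in the paired comparisons it changed no other call that is given with its value there. Upper-quartile scaling moved the median of all genes to 0.121 in untreated Lkb1-/- against wild-type MEFs and 0.135 after IL-1β, where the members' medians were 1.62 and 1.25.

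Isoform shares changed with the strand setting. As a percent of γ counts in untreated wild-type, Lkb1-/-, A1 and A2 MEFs, Pcdhgc3 held 87.3%, 74.7%, 85.4% and 82.6% with stranded counts and 85.3%, 51.5%, 67.5% and 62.5% with unstranded ones, Pcdhga10 held 7.35%, 0.278%, 0.197% and 0.170% and then 0% in each, and Pcdhgb6 held 0.176%, 8.09%, 3.89% and 3.33% and then 0.536%, 17.2%, 9.42% and 8.18%. Without strand, pairs on Pcdhga10 also lie on Gm26672 and are not assigned to either gene. BC037039 lies on the other strand of Pcdhgc3, and the share of Pcdhgb6 depends on the counts of the other γ genes. The part of this in their shares was not tested. Depth limits the α genes, the 10 untested β genes and members such as Pcdhb9 and Pcdhgb1, where groups hold under 5 counts per library.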

Other observations

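Across the 33 tested members the mean levels of a line untreated and after IL-1β had Spearman correlations of 0.949 to 0.982, given as a description over genes that share libraries, lengths and depth. Between wild-type MEFs and the other lines they were 0.437 to 0.654, between Lkb1-/- MEFs and the clones 0.798 to 0.850, and between the clones 0.850 to 0.884. The opposite strand held 0% to 1.37% of the stranded reads of the tested members, with a median of 0.350%, against 4.05% to 4.53% per library over all genes.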
